A study of Homo sapiens with 18 samples.

Results

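The comparison described here asks which effects of a brief fluid shear stress on PC-3 cells differed between 12 h and 3 h after the exposure. Its quantity is a difference of differences: the log2 ratio of sheared to static cells at 12 h minus that ratio at 3 h, each ratio taken within a pool of cells. Its contrast uses the 12 libraries of 3 h and 12 h out of the 18 of the series, chosen by their labelled time. All 18 were fitted together, so those of 24 h helped to estimate the spread. In this fit 15189 genes passed the filter on low counts. A gene was called when its Benjamini-Hochberg adjusted p, from edgeR's quasi-likelihood F test over all of these genes, was below 0.05.

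The 4 groups were static cells at 3 h, sheared cells at 3 h, static cells at 12 h and sheared cells at 12 h, with 3 libraries each. Shear was given by pushing a suspension through a syringe with a 30G needle, while static cells waited in suspension. All cells were in DMEM with insulin-transferrin-selenium and bovine serum albumin and were then held in wells coated with poly-HEMA, to which cells do not attach. The RNA came from the cytosol after detergent lysis. At each time, 1 pool of cells gave both the sheared and the static library of a replicate number, and the pools of the 2 times were different.

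Every cell came from 1 cell line, so the pools carry the variation between cultures and not between patients. The 3 h libraries carry another batch date than the 12 h libraries. Each shear effect was taken within 1 batch date, but their difference spans 2, so time after shear and batch date cannot be told apart. In bulk RNA, fewer cells that express a gene and less RNA per cell cannot be told apart either.

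Mechanical stimuli such as shear activate calcium, cAMP and MAP kinase signals within minutes. These signals switch on immediate early genes, whose transcripts are short-lived because many of their products and RNA-decay factors shut them off again. Later changes come through the proteins that the first wave encodes, through feedback inhibitors, and through slower programs such as the cell cycle, lipid synthesis and the interferon response. Tumour cells meet shear in the bloodstream, where they are also detached, and loss of attachment by itself slows the cell cycle of many epithelial cells.

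The 12 libraries held 16400487 to 25862360 counts, which limits the precision for genes of low abundance. The line's labelled origin was checked against markers. The keratin genes KRT8 and KRT18 were at 792 to 1494 and 598 to 1023 CPM (a library's counts for a gene, scaled to the library's total), so epithelial genes were well expressed. Genes of differentiated prostate epithelium were split: KLK2 and KLK3, secreted proteases, had 0 counts, while HOXB13 was at 113 to 279.9 CPM, SLC45A3 at 59.3 to 241 CPM, TMPRSS2 at 34.5 to 113 CPM and FOLH1 at 12.1 to 24.9 CPM. Summed over a list of 8 nuclear-retained RNAs, which stand for leakage from the nucleus, the 3 h libraries held 199.6 to 237 CPM when static and 159 to 219 CPM when sheared, and the 12 h libraries 301 to 331 and 255 to 287 CPM.

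Most shear effects were not called at both times. Shear raised 170 genes and lowered 52 at 3 h (1.12% and 0.342% of genes tested), against 956 and 691 at 12 h (6.29% and 4.55%). The difference itself passed for 214 genes, 1.41% of those tested: 78 had a more positive effect at 12 h (0.514%) and 136 a more negative one (0.895%), 35 and 81 of them by at least 2-fold. In each of the 214 the 3 pool ratios of one time lay apart from the 3 of the other, as they did in 24.6% of all genes. At an unadjusted p below 0.05 the counts were 958 and 1042. Across the 15189 genes the effects at 3 h and 12 h had a Pearson r of 0.199 and a Spearman rho of 0.272, as a description of genes that share libraries within a time.

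The 214 genes and those called at both times fell into response classes. A response was transient when it passed at 3 h but not at 12 h and the difference also passed: 43 genes were higher and 10 lower. Delayed responses, with the times exchanged, numbered 55 higher and 78 lower. The effect passed at both times with opposite signs in 10 genes and with 1 sign, a lasting response, in 62, of which 46 were higher and 16 lower. For 16 genes the difference passed while neither time did. The difference was not called for 75 higher and 22 lower genes that passed only at 3 h and for 851 higher and 591 lower ones that passed only at 12 h, so these are called neither transient nor delayed.

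These counts depended on single pools. The more positive and more negative genes numbered 22 and 52, 15 and 44 or 27 and 53 without 3 h replicate 1, 2 or 3, and 26 and 64, 19 and 53 or 64 and 90 without 12 h replicate 1, 2 or 3. Without 24 h replicate 2 or 3, pools that only shape the estimate of spread, they were 145 and 213 or 257 and 378. With scaling by total counts the median difference of all genes moved to -0.10, and the counts became 49 and 208 (19.1% more positive, against 36.4%). No gene of the 214 changed sign under any of 15 alternatives, 51 kept their call under the 14 that respect the pools, and 25 under all 15. With no replicate block, which ignores the pairing within pools, 29 of the 214 kept their call. Among others, OAS2, CD55, AURKA, CAV1, FAM83A, CAV2 and KIF14 lost it there (adjusted p from 0.163 to 0.716). Genes named below only to complete a count of members or to mark the edge of the call (such as RRAD, CMPK2, FST, KIF18A, GTSE1, DEPDC1 and CKAP2L) were chosen after their values were seen; the others follow the rule for named genes.

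**Figure D1:**
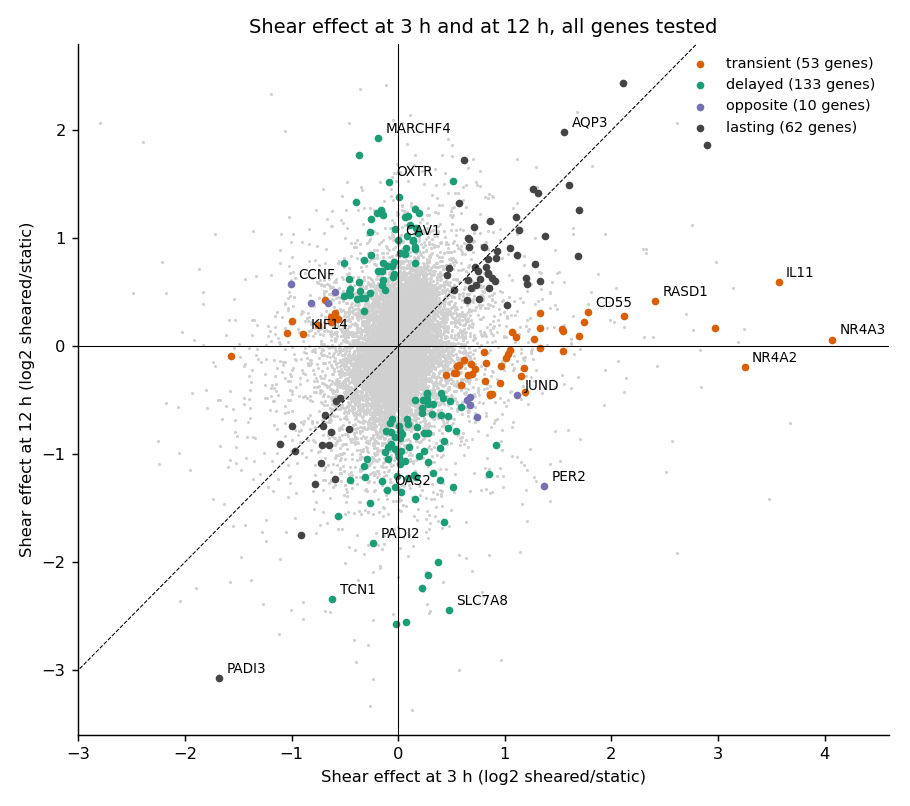
Shear effect at 3 h (horizontal axis, log2 sheared over static) against that at 12 h (vertical axis), 1 point per gene tested, with the response classes in colour and the dashed line marking equal effects. Transient genes lie along the horizontal axis, delayed genes along the vertical axis, and lasting genes near the dashed line, with NR4A3 farthest to the right at 4.07.

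Of the transient higher responses, the 2 with the largest differences were those of NR4A3 and NR4A2, nuclear receptor genes which act as immediate early transcription factors without a known ligand requirement. NR4A3 stood at 2.07, 1.92 and 1.24 CPM in the static and 29.0, 29.3 and 28.8 CPM in the sheared libraries of 3 h, and at 0.167, 0.592 and 0.530 CPM in the static and 0.338, 0.386 and 0.624 CPM in the sheared libraries of 12 h (values here and in what follows are in the order of replicates 1 to 3). Its 3 sheared libraries at 3 h were above all others, and at 12 h sheared and static cells overlapped. The effect was 4.07 ± 0.23 at 3 h and 0.06 ± 0.41 at 12 h (log2 ± SE), a difference of -4.01 ± 0.49 (adjusted p = 0.000519, edgeR).

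Its relative NR4A2 was at 11.5, 10.9 and 10.9 CPM in static and 112, 132 and 79.0 CPM in sheared cells at 3 h, then at 5.94, 6.56 and 6.50 and 5.52, 5.84 and 5.28 CPM at 12 h. At 12 h the sheared libraries were slightly below the static ones, with no overlap, but that effect did not pass (-0.19 ± 0.27, adjusted p = 0.706). The effect at 3 h was 3.25 ± 0.25 and the difference -3.44 ± 0.37 (adjusted p = 0.000519). KLF4, a zinc finger transcription factor of epithelial cells, was at 41.0, 42.6 and 59.3 CPM in static and 147, 126 and 139.7 CPM in sheared cells at 3 h. At 12 h it was at 90.1, 92.4 and 96.6 and 103, 112 and 93.2 CPM, where the groups overlapped, and the difference was -1.41 ± 0.17 (adjusted p = 0.000519).

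Among transient genes of secreted factors, IL11, a cytokine of the IL-6 family, was at 5.86, 4.10 and 3.42 CPM in static and 63.0, 75.0 and 28.8 CPM in sheared cells at 3 h. At 12 h its levels were 5.33, 4.54 and 6.21 CPM and 7.60, 8.63 and 7.92 CPM. The sheared libraries were above the static ones at both times, but the effect shrank from 3.57 ± 0.24 to 0.59 ± 0.24, and the latter did not pass (adjusted p = 0.119). The difference was -2.98 ± 0.33 (adjusted p = 0.000368). HBEGF, a ligand of the EGF receptor, was at 27.6, 25.5 and 20.4 CPM and 48.2, 48.3 and 38.3 CPM at 3 h, and at 19.2, 18.5 and 19.5 CPM and 11.6, 12.0 and 19.5 CPM at 12 h. Sheared cells were higher in each pool at 3 h and lower in 2 of 3 pools at 12 h, and the difference was -1.32 ± 0.21 (adjusted p = 0.00232). ADAMTS1, a secreted metalloprotease that cleaves proteoglycans, was at 12.3, 12.5 and 14.4 CPM in static and 60.9, 60.8 and 48.9 CPM in sheared cells at 3 h, and at 14.6, 13.3 and 14.4 CPM and 18.2, 18.04 and 15.2 CPM at 12 h. Its sheared libraries of 3 h stood far above all others, and the difference was -1.84 ± 0.27 (adjusted p = 0.00168).

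At the cell surface and beneath it, CD55, which shields cells from complement, was at 130.4, 103 and 130.04 CPM in static and 396, 415 and 436 CPM in sheared cells at 3 h. At 12 h it was at 85.8, 87.2 and 74.2 CPM and 114, 110.3 and 85.0 CPM, with overlap between the groups, although the sheared library of each pool was the higher one. The difference was -1.47 ± 0.22 (adjusted p = 0.00175). RASD1, a small GTPase of the Ras family, was at 12.0, 8.97 and 10.3 CPM and 57.4, 61.9 and 47.2 CPM at 3 h and at 7.89, 6.76 and 9.53 CPM and 10.2, 7.91 and 14.7 CPM at 12 h, a difference of -1.99 ± 0.26 (adjusted p = 0.000758). PHLDA1, a protein with a pleckstrin homology-like domain, was at 414, 414 and 464 CPM and 673, 629 and 736 CPM at 3 h and at 939, 970.3 and 885 CPM and 777, 757 and 786 CPM at 12 h. Its sheared libraries were all above the static ones at 3 h and all below them at 12 h, where the effect did not pass (-0.27 ± 0.10, adjusted p = 0.103). The difference was -0.93 ± 0.14 (adjusted p = 0.00232).

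COL1A1, a chain of type I collagen, followed the same order, with 12.1, 12.5 and 15.5 CPM in static and 29.9, 32.5 and 28.6 CPM in sheared cells at 3 h and 29.8, 29.2 and 36.0 CPM and 21.4, 26.9 and 22.5 CPM at 12 h. The difference was -1.61 ± 0.22 (adjusted p = 0.00113). COL1A1 belongs to a list of 15 fibroblast and endothelial markers whose summed level at 3 h was 34.2 to 43.4 CPM without shear and 50.9 to 52.0 CPM with it, and at 12 h 116 to 135 and 68.8 to 79.5 CPM. Of that list, COL1A2 had at most 16 counts in a library, DCN 5, VWF 4 and THY1 2, while PECAM1 reached 93.3 CPM. LUM reached 95 counts, PDGFRA 68, COL3A1 44 and KDR 30. Of the 8 members tested, 5 differences were below 0 and 3 above (-1.61 to 5.06), and 1 passed, as more negative. The part of other cell types in this result was not tested.

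Of 35 immediate early genes tested, 8 had a more negative effect at 12 h (22.9%, against 0.895% of all genes) and none a more positive one. Their median effect was 0.89 at 3 h and 0.16 at 12 h, and their median difference -0.65, against 0.00326 for all genes. Besides JUND, NR4A2, NR4A3, KLF4 and RASD1, the 8 were the small GTPase genes RRAD and GEM and the AP-1 gene JUN. The number was 6 or 7 without 1 pool of 3 h or 12 h, 12 without 24 h replicate 2 and 16 without 24 h replicate 3. JUN was at 51.3, 59.3 and 67.4 CPM in static and 111, 86.7 and 144 CPM in sheared cells at 3 h, where it did not pass (adjusted p = 0.114), and at 135, 127 and 149 CPM and 80.9, 71.8 and 64.8 CPM at 12 h, where it passed as lower (-0.92 ± 0.24, adjusted p = 0.0312). Its difference was -1.84 ± 0.33 (adjusted p = 0.024), and its call was lost without 3 h replicate 1 or 3 or any 1 pool of 12 h, with adjusted p-values up to 0.107. GEM lost its call on leaving out 3 h replicate 2 or 3, and likewise 12 h replicate 1 or 2 (adjusted p up to 0.118).

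Several well-known members had large effects at 3 h whose difference from 12 h was not called. FOS and FOSB, AP-1 subunits, had effects of 1.62 ± 0.35 and 2.84 ± 0.47 at 3 h and -0.39 ± 0.36 and -0.38 ± 0.76 at 12 h, with adjusted p-values of 0.0728 and 0.175 for the difference. For ATF3, a stress-induced transcription factor, the difference was -1.94 ± 0.43 (adjusted p = 0.0728), and for NR4A1 it was -2.59 ± 0.87 (adjusted p = 0.275). In NR4A1 the groups did not overlap at either time, with 34.3, 32.9 and 41.2 CPM in static and 348, 366 and 249.9 CPM in sheared cells at 3 h and 15.8, 14.004 and 14.9 CPM and 25.1, 23.4 and 17.3 CPM at 12 h. Without 24 h replicate 3 the differences of NR4A1, FOS, FOSB and ATF3 all passed (adjusted p = 0.000258, 0.000754, 3.41e-07 and 1.31e-05). In DESeq2 those of FOS, FOSB and ATF3 passed too (0.00155, 0.0348 and 0.00949). Of 15 cAMP and CREB response genes 4 had a more negative effect at 12 h, namely NR4A2, NR4A3, PER1 and BDNF, and of 20 MAPK feedback genes 4, namely SPRY1, PHLDA1, DUSP6 and SPRY4 (against 0.895% of all genes). The last of these numbers was 2 without any 1 pool of 3 h or without 12 h replicate 2 or 3.

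MALAT1, an RNA kept in the nucleus, was at 29.5, 25.8 and 23.9 CPM in static and 15.1, 14.4 and 15.1 CPM in sheared cells at 3 h, with no overlap, but its effect there did not pass (-0.82 ± 0.54, adjusted p = 0.778). At 12 h it was at 35.4, 38.6 and 38.9 CPM and 39.2, 29.4 and 32.1 CPM, where the groups overlapped. Its difference was 0.65 ± 0.76 (adjusted p = 0.796). In the 12 libraries alone it passed (0.64, adjusted p = 0.0338), as 341 of 15088 genes did as more positive. The part of nuclear RNA in the transient responses was not tested.

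**Figure D2:**
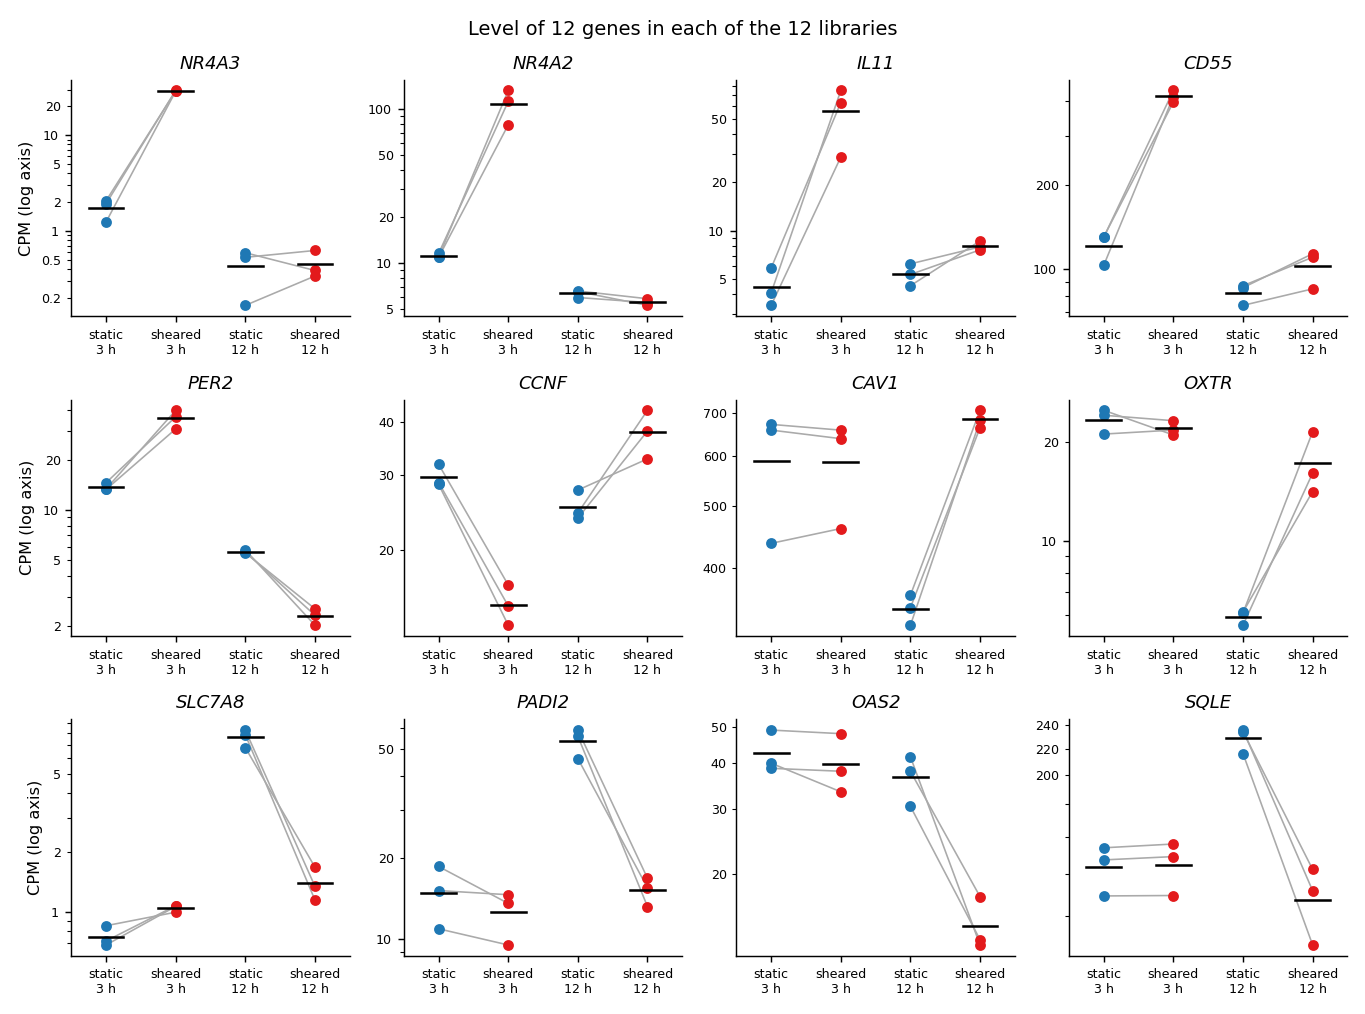
Level of 12 genes in each of the 12 libraries (CPM, logarithmic axes that differ between panels), static in blue and sheared in red, with grey lines joining the 2 libraries of a pool and black bars for the group mean. NR4A3, NR4A2, IL11 and CD55 were high in sheared cells at 3 h, CAV1 and OXTR were low in static cells at 12 h, and SLC7A8 and PADI2 were high in static cells at 12 h.

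For 6 genes the effect turned from higher at 3 h to lower at 12 h, each passing at both times. PER2, a repressor of the circadian clock that is also induced acutely through cAMP, was at 14.5, 13.3 and 13.3 CPM in static and 36.3, 39.7 and 30.7 CPM in sheared cells at 3 h, and at 5.50, 5.57 and 5.73 CPM and 2.53, 2.32 and 2.02 CPM at 12 h. No static library overlapped a sheared one at either time. Its effect was 1.37 ± 0.17 at 3 h (adjusted p = 0.00012) and -1.30 ± 0.20 at 12 h (adjusted p = 0.000789), and its difference, -2.66 ± 0.26, had the smallest adjusted p of those named here (0.000148). JUND, an AP-1 subunit that is present in resting cells, was at 125, 126 and 146 CPM in static and 313, 246 and 302 CPM in sheared cells at 3 h, and at 190.4, 176 and 252 CPM and 129, 158 and 162 CPM at 12 h. Again the groups were apart at both times, with effects of 1.12 ± 0.12 and -0.45 ± 0.12 and a difference of -1.57 ± 0.17 (adjusted p = 0.000368).

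SPRY1, an inhibitor of growth factor receptor signalling, was at 23.1, 22.3 and 29.1 CPM and 36.9, 31.9 and 51.6 CPM at 3 h and at 33.6, 41.0 and 36.2 CPM and 25.7, 29.6 and 24.8 CPM at 12 h, a difference of -1.14 ± 0.17 (adjusted p = 0.00175). The sheared library of each pool was the higher one at 3 h and the lower one at 12 h. The same held for KIAA0040, whose role is not well described (-1.14 ± 0.17), for TNFRSF19, a receptor of the tumour necrosis factor receptor family (-1.22 ± 0.19), and for CEMIP2, a membrane protein linked to hyaluronan turnover (-1.39 ± 0.24). The adjusted p-values of these 3 differences were 0.00175, 0.00228 and 0.00573, and that of CEMIP2 was 0.0726 without 12 h replicate 2. As a class these genes numbered 2 to 5 without 1 pool of 3 h or 12 h, 10 or 23 without 24 h replicate 2 or 3, and 14 with scaling by total counts.

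**Figure D3:**
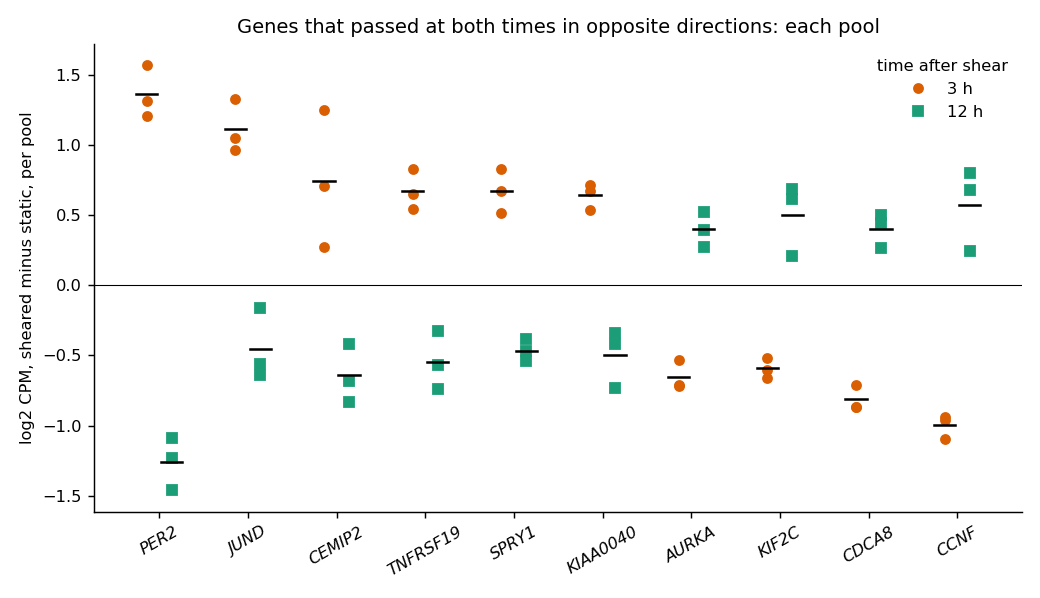
Log2 ratio of sheared to static CPM within each pool for the 10 genes that passed at both times with opposite signs, 3 h in orange circles and 12 h in green squares, with black bars for the mean of 3 pools. All 3 pools of a time lie on one side of 0 in each gene.

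Among 18 circadian clock genes, whose feedback loop of activators and repressors runs in most cells, 2 had a more negative effect at 12 h, PER2 and PER1 (11.1%, against 0.895% of all genes). The median effect of the list was 0.18 at 3 h and -0.46 at 12 h, and 15 of the 18 differences were below 0. PER1, a repressor paired with PER2, was at 25.8, 26.3 and 24.6 CPM in static and 47.1, 43.2 and 49.1 CPM in sheared cells at 3 h and at 21.9, 22.6 and 24.3 CPM and 18.3, 19.1 and 13.6 CPM at 12 h, with no overlap at either time. It passed at 3 h (0.86 ± 0.14, adjusted p = 0.00204) but not at 12 h (-0.45 ± 0.14, adjusted p = 0.0552), and its difference was -1.31 ± 0.20 (adjusted p = 0.00209). PER3 was at 5.23, 3.72 and 3.33 CPM and 4.24, 4.24 and 4.12 CPM at 3 h, where the groups overlapped, and at 4.44, 3.99 and 4.14 CPM and 1.74, 1.54 and 1.83 CPM at 12 h. Its effect at 12 h passed (-1.30 ± 0.25, adjusted p = 0.00407), and its difference did not (-1.35 ± 0.34, adjusted p = 0.059), though it did under 6 of 15 alternatives, among them DESeq2 (0.0364) and the analysis without 24 h replicate 3 (0.0194).

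Promoters of 3 of these early genes are shown because their levels moved together at 3 h and each holds, in the 250 bases before the gene's start, a short sequence that a known family of activators binds. They come from RefSeq (GRCh38.p14), are written 5′ to 3′ on the gene's strand, and carry the motif in capitals. In IL11 (chr19:55370464-55370713, minus strand) this is an AP-1 element, TGACTCA or on the other strand TGAGTCA, which begins 96 bases before the start. JUND (chr19:18281623-18281872, minus strand) holds a cAMP response element, TGACGTCA, 200 bases before the start, and PER1 (chr17:8152405-8152654, minus strand) an E-box, CACGTG, 173 bases before it; both read the same on either strand.
IL11: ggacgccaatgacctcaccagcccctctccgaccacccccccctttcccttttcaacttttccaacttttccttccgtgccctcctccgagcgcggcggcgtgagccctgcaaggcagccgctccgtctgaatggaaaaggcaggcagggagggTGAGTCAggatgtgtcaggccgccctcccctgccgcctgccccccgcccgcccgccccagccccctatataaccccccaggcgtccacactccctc
JUND: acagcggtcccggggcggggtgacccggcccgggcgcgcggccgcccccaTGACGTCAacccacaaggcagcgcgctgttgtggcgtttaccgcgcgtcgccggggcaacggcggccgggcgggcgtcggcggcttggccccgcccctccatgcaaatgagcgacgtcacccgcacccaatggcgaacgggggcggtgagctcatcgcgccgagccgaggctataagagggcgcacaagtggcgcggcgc
PER1: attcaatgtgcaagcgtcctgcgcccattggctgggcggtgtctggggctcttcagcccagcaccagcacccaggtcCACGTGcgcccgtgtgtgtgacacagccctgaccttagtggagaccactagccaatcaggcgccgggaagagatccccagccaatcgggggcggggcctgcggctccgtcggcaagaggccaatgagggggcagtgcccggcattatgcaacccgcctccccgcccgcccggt
In windows of 250 bases before and 50 after the start, an AP-1 element was present in 4 of the 34 transient higher genes with a promoter in the table, a cAMP response element in 3 and an E-box in 7 (11.8%, 8.82% and 20.6%). Over all 27305 promoters of that length the shares were 4.92%, 1.98% and 7.43%, and over the 11904 genes tested that had one 3.28%, 3.12% and 9.74%. In the 33 lasting higher genes that had one they were 12.1%, 12.1% and 6.06%, so the first 2 motifs were not particular to transient genes. E-box shares in transient lower, delayed higher, delayed lower and lasting lower genes were 11.1%, 7.5%, 13.7% and 8.33%. In the list of clock genes the share was 29.4%. Whether the E-box is particular to transient higher genes was not tested. JUND is not among the 34, because its effect passed at both times with opposite signs. A match describes letters in a window and not binding.

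In 4 genes the effect turned from lower at 3 h to higher at 12 h, each passing at both times. Of these, CCNF, AURKA and KIF2C belong to a list of 48 genes of G2/M and mitosis, which is described after them. CCNF, the cyclin of a ubiquitin ligase, was at 28.6, 28.8 and 31.8 CPM in static and 13.3, 14.8 and 16.5 CPM in sheared cells at 3 h, and at 23.8, 24.5 and 27.7 CPM and 38.2, 42.7 and 32.8 CPM at 12 h. Static levels were slightly lower at 12 h than at 3 h, and sheared levels were below the static ones at 3 h and above them at 12 h. The effects were -1.004 ± 0.14 and 0.58 ± 0.14, a difference of 1.58 ± 0.20 (adjusted p = 0.000628). CDCA8, a subunit of the chromosomal passenger complex, was at 81.8, 90.7 and 81.0 CPM and 49.9, 49.7 and 44.4 CPM at 3 h and at 58.6, 53.5 and 59.3 CPM and 79.7, 75.6 and 71.3 CPM at 12 h, a difference of 1.22 ± 0.18 (adjusted p = 0.00168).

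The mitotic kinase gene AURKA was at 120.0, 137 and 114 CPM and 82.7, 83.0 and 69.5 CPM at 3 h and at 109.6, 103 and 107 CPM and 133, 149 and 141 CPM at 12 h, and differed by 1.05 ± 0.17 (adjusted p = 0.00299). KIF2C, a kinesin that shortens microtubules, differed by 1.10 ± 0.20 (adjusted p = 0.0102), and lost its call when 1 of 4 pools was left out. That value rose to 0.0604 and 0.0848 on leaving out 3 h replicate 1 and 2, and to 0.0650 and 0.101 on leaving out the same numbers of 12 h. Without 12 h replicate 1 or 2, or with scaling by total counts, 0 of the 4 genes kept this class, and 1 of 4 did without any 1 pool of 3 h.

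Of the 10 transient lower genes, KIF14, KIF18A and KIF20A belong to that list of G2/M and mitosis. KIF14, a kinesin needed for cytokinesis, was at 66.6, 63.7 and 63.5 CPM in static and 35.1, 34.7 and 34.8 CPM in sheared cells at 3 h and at 99.6, 111 and 74.3 CPM and 122, 105 and 80.4 CPM at 12 h. Its groups were apart at 3 h and overlapped at 12 h, with a difference of 1.00 ± 0.16 (adjusted p = 0.00299). The class also held GTSE1, FAM83D, DEPDC1 and CKAP2L, PTX3, a secreted pattern recognition protein, CYP1A1, a cytochrome P450 induced by the aryl hydrocarbon receptor, and BMF, a pro-apoptotic protein that senses loss of attachment. PTX3 was at 86.5, 83.8 and 82.1 CPM and 43.7, 41.8 and 41.1 CPM at 3 h and at 32.2, 38.4 and 35.1 CPM and 39.0, 51.7 and 35.0 CPM at 12 h, a difference of 1.23 ± 0.18 (adjusted p = 0.00175). BMF was at 12.2, 13.8 and 7.22 CPM and 4.87, 4.73 and 1.92 CPM at 3 h and at 3.22, 3.94 and 2.70 CPM and 3.43, 3.52 and 2.35 CPM at 12 h. Its difference of 1.48 ± 0.35 passed (adjusted p = 0.0438) but was lost without any 1 pool of 3 h or 12 h, and so was that of CYP1A1 (1.16 ± 0.27). The class held 3 genes without any 1 pool of 3 h, 6 without 12 h replicate 1, and 22 or 35 without 24 h replicate 2 or 3.

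Over the list of 48 genes of G2/M and mitosis, 11 had a more positive effect at 12 h (22.9%, against 0.514% of all genes) and none a more negative one. The median effect was -0.44 at 3 h, where 14 were lower and none higher, and 0.26 at 12 h, where 12 were higher and none lower. All 48 differences were above 0, with a median of 0.71, or 0.61 with scaling by total counts, under which 7 genes passed. Without 1 pool of 3 h or 12 h the number was 4 to 6, without 24 h replicate 2 or 3 it was 25 or 36, and with no replicate block 1. CENPA, the histone that marks centromeres, was at 56.3, 52.6 and 50.0 CPM and 43.1, 41.2 and 32.1 CPM at 3 h and at 62.2, 54.2 and 66.1 CPM and 83.5, 95.7 and 101 CPM at 12 h. Only its 12 h effect passed (0.62 ± 0.12), and the difference was 1.08 ± 0.16 (adjusted p = 0.00206). CDK1, the kinase that starts mitosis, did not pass for the difference (0.75 ± 0.22, adjusted p = 0.121), but passed without 24 h replicate 3 (0.00305), in the 12 libraries alone (0.00108) and with no filter (0.00213). Of 48 genes of G1/S and DNA replication 0 passed for the difference in edgeR (11 at an unadjusted p below 0.05, 1 in DESeq2, 5 without 24 h replicate 3 and 10 in the 12 libraries alone), 42 differences were above 0, and the median was 0.34. Over all genes, 257 of 15448 passed as more positive without 24 h replicate 3 and 341 of 15088 in the 12 libraries alone.

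Promoters of CCNF and CDCA8 are shown because they share TTTGAA, or TTCAAA on the other strand, the core of the element known as the cell cycle homology region, which represses mitotic genes before G2. The match begins 85 bases before the start in CCNF (chr16:2429197-2429446, plus strand) and 23 bases before it in CDCA8 (chr1:37692266-37692515, plus strand), in RefSeq sequence of GRCh38.p14 with the match in capitals.
CCNF: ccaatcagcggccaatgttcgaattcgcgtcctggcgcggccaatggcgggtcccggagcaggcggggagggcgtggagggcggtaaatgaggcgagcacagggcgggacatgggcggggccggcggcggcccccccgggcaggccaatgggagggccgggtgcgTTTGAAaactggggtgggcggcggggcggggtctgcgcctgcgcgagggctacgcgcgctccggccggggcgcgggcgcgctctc
CDCA8: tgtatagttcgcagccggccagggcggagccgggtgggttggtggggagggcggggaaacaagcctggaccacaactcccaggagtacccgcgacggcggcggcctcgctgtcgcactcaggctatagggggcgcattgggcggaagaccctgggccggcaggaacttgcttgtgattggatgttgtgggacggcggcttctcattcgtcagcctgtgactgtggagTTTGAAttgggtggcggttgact
The same 6 letters were present in the windows of 5 of 9 transient lower genes (55.6%), in 29 of 41 genes of the G2/M list (70.7%) and in 11 of 40 delayed higher genes (27.5%). Their share was 9.69% over the genes tested and 15.4% over all promoters.

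Delayed responses that were higher at 12 h included membrane and signalling proteins. MARCHF4, a ubiquitin ligase of intracellular membranes, was at 11.1, 12.1 and 8.21 CPM in static and 9.40, 10.7 and 7.47 CPM in sheared cells at 3 h and at 2.94, 2.27 and 3.32 CPM and 8.16, 9.98 and 14.8 CPM at 12 h. OXTR, the oxytocin receptor, was at 21.1, 24.9 and 24.0 CPM and 21.7, 20.9 and 23.1 CPM at 3 h and at 6.11, 5.57 and 6.07 CPM and 14.1, 16.1 and 21.4 CPM at 12 h. In both genes the groups overlapped at 3 h, and the static libraries of 12 h were the lowest of all 12. For MARCHF4 the sheared library of each 3 h pool was the lower one. The differences were 2.12 ± 0.31 (adjusted p = 0.00175) and 1.61 ± 0.26 (adjusted p = 0.00309).

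PDE1C, which breaks down cyclic nucleotides under control of calcium, was at 87.9, 85.3 and 90.8 CPM in static and 83.0, 92.2 and 91.2 CPM in sheared cells at 3 h and at 25.7, 25.0 and 20.2 CPM and 58.0, 62.0 and 64.3 CPM at 12 h. Its effect was 0.01 ± 0.13 at 3 h and 1.38 ± 0.13 at 12 h, a difference of 1.37 ± 0.19 (adjusted p = 0.000864). FAM83A, a scaffold protein of growth factor signalling, was at 26.3, 26.9 and 19.4 CPM and 22.1, 27.2 and 16.4 CPM at 3 h and at 39.0, 37.4 and 38.4 CPM and 87.9, 98.6 and 89.2 CPM at 12 h. Here the sheared libraries of 12 h were the highest of all 12, and the difference was 1.42 ± 0.18 (adjusted p = 0.000526).

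The caveolins coat the membrane pits called caveolae, which flatten when a membrane is stretched. CAV1 was at 658, 671 and 438 CPM in static and 638, 658 and 462 CPM in sheared cells at 3 h and at 363, 348 and 326 CPM and 706, 664 and 681 CPM at 12 h. Sheared cells at 12 h were above the sheared cells of 3 h, and static cells at 12 h were below all 3 h libraries. The effect was 0.00 ± 0.10 at 3 h and 0.98 ± 0.10 at 12 h, and the difference 0.98 ± 0.14 (adjusted p = 0.00168). CAV2, its partner, was at 101, 97.7 and 72.9 CPM and 117, 109 and 82.2 CPM at 3 h and at 107, 106 and 89.6 CPM and 239, 195 and 194 CPM at 12 h, a difference of 0.87 ± 0.14 (adjusted p = 0.00299). Here static cells overlapped between the times and sheared cells of 12 h stood above all others. With ANXA3, an annexin (0.82 ± 0.15), these were the 3 of 32 genes of membrane repair, annexins and caveolae with a more positive effect at 12 h (0.514% of all genes). CHMP1B, of the ESCRT complex that seals membranes, had a more negative one (-0.75 ± 0.16, adjusted p = 0.0291), lost without any 1 pool of 3 h or 12 h. ANXA3 lost its call without 3 h replicate 2 or 3 (adjusted p = 0.0615 and 0.0678).

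Other genes of the delayed higher class, each lost without at least 2 of the pools left out in turn, were AXL, a receptor kinase (0.92 ± 0.17), KRT7, a keratin (0.62 ± 0.15), BIRC5, which inhibits apoptosis and acts in mitosis (0.64 ± 0.15), and AOX1, an aldehyde oxidase (1.35 ± 0.26). The long non-coding RNA CYTOR (1.12 ± 0.22) was among them as well, and RPSAP52 (2.14 ± 0.36), a pseudogene whose reads may be shared with the ribosomal protein gene RPSA. AXL and BIRC5 were the 2 of 26 YAP/TAZ target genes with a more positive effect at 12 h (0.514% of all genes), and none was more negative. The number was 0 without 3 h replicate 1 or 2 or 12 h replicate 2. The YAP/TAZ targets best known as early responders were not called: CCN1 differed by 0.51 ± 0.48 (adjusted p = 0.733) and CCN2 by -0.98 ± 0.51 (adjusted p = 0.452). CCN2 passed when low counts were not filtered (adjusted p = 0.0189).

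Among delayed responses that were lower at 12 h, SLC7A8, a transporter of neutral amino acids, was at 0.716, 0.684 and 0.855 CPM in static and 1.08, 1.07 and 1.00 CPM in sheared cells at 3 h and at 8.28, 6.76 and 7.85 CPM and 1.35, 1.69 and 1.15 CPM at 12 h. Static cells at 12 h were far above all other libraries. The difference was -2.92 ± 0.42 (adjusted p = 0.00152). FCGR2A, a receptor for the constant part of IgG whose reads may be shared with near-identical relatives, was at 2.66, 2.73 and 2.39 CPM and 2.86, 2.39 and 2.92 CPM at 3 h and at 10.1, 14.2 and 8.62 CPM and 2.93, 1.399 and 1.39 CPM at 12 h, a difference of -2.62 ± 0.41 (adjusted p = 0.00228). PADI2, which turns arginine in proteins into citrulline, was at 18.5, 15.1 and 10.9 CPM and 13.6, 14.6 and 9.54 CPM at 3 h and at 46.2, 58.8 and 55.8 CPM and 15.5, 16.8 and 13.2 CPM at 12 h, a difference of -1.59 ± 0.23 (adjusted p = 0.00175). In both genes the 3 static libraries of 12 h stood alone as high, and the groups overlapped at 3 h. For PADI2 the sheared library of each 3 h pool was the lower one.

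TCN1, which carries vitamin B12, was at 51.9, 49.2 and 53.0 CPM in static and 34.6, 32.9 and 32.9 CPM in sheared cells at 3 h and at 155, 158 and 114 CPM and 36.4, 28.4 and 20.4 CPM at 12 h. It was lower in sheared cells at both times with no overlap, but passed only at 12 h (-2.35 ± 0.19) and not at 3 h (-0.62 ± 0.18, adjusted p = 0.163). Its difference was -1.73 ± 0.26 (adjusted p = 0.00299). SLC7A11, the cystine transporter of glutathione synthesis, went the same way, from 85.7, 75.8 and 81.9 CPM and 47.6, 53.1 and 64.9 CPM at 3 h to 73.0, 85.4 and 69.4 CPM and 29.4, 25.8 and 21.8 CPM at 12 h. Its difference of -1.01 ± 0.22 (adjusted p = 0.0256) was lost when replicate 2 or 3 of either time was left out (adjusted p up to 0.166). DUSP6, a phosphatase that shuts off the MAP kinase ERK, had a difference of -0.84 ± 0.18 (adjusted p = 0.0256), lost without any 1 of 5 of the 6 pools of 3 h and 12 h.

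Interferon induces a set of antiviral genes. Of 42 tested, 24 were lower and 0 higher at 12 h (4.55% of all genes were lower), 0 were lower and 1 higher at 3 h, and 18 did not pass at 12 h. For the difference, 5 of the 42 passed as more negative at 12 h and none as more positive (11.9%, against 0.895% of all genes). Their median effect was -0.07 at 3 h and -0.59 at 12 h, and 39 of 42 differences were below 0, with a median of -0.55. OAS2, which senses double-stranded RNA, was at 39.9, 38.6 and 49.0 CPM in static and 33.4, 37.9 and 47.9 CPM in sheared cells at 3 h and at 37.9, 41.5 and 30.5 CPM and 17.4, 12.9 and 13.3 CPM at 12 h. Its groups overlapped at 3 h, although the sheared library of each pool was the lower one, and its sheared libraries of 12 h were the lowest of all 12. The difference was -1.23 ± 0.20 (adjusted p = 0.00299, and 0.0408 at most without 1 pool). The other 4 were the dynamin-like GTPase genes MX1 (-0.92 ± 0.19) and MX2 (-1.57 ± 0.29), RSAD2, which makes a chain-terminating nucleotide (-1.34 ± 0.28), and its neighbour CMPK2 (-1.20). The number was 1 to 3 without 1 pool of 3 h or 12 h, 11 without 24 h replicate 3, and 0 with no replicate block.

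Genes of lipid synthesis followed. Of 27 genes of cholesterol synthesis and uptake, 4 had a more negative effect at 12 h and none a more positive one (14.8%, against 0.895% of all genes), with a median effect of 0.05 at 3 h, -0.55 at 12 h and a median difference of -0.57. The 4 were HMGCS1, which starts the pathway, SQLE and CYP51A1, which act on squalene and lanosterol, and ACAT2, which supplies acetoacetyl-CoA. CYP51A1 was at 147, 138 and 119 CPM in static and 149, 169.8 and 136 CPM in sheared cells at 3 h and at 179, 186 and 168 CPM and 109, 101 and 107 CPM at 12 h. Its difference was -0.92 ± 0.15 (adjusted p = 0.00309), and 0.0549 without 3 h replicate 2. All static libraries of 12 h were above those of 3 h, and the sheared libraries of 12 h were the lowest of all 12. HMGCS1 was at 104, 102 and 76.5 CPM and 118, 138 and 132 CPM at 3 h and at 153, 161 and 148 CPM and 99.4, 87.2 and 87.9 CPM at 12 h, with sheared cells above static ones at 3 h and below them at 12 h. Its difference of -1.22 ± 0.26 (adjusted p = 0.0297) was lost without 3 h replicate 2 or 3, 12 h replicate 1, 2 or 3 or 24 h replicate 1 (adjusted p up to 0.164).

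Of 24 genes of fatty acid synthesis and desaturation 4 had a more negative effect at 12 h (16.7%, against 0.895% of all genes), the desaturase genes FADS1 (-0.81 ± 0.17) and FADS2 (-0.95 ± 0.17), ACSS2, which makes acetyl-CoA from acetate (-0.86 ± 0.18), and SREBF1, the regulator of the pathway (-0.61 ± 0.15). FADS2 was at 727, 727 and 624 CPM and 680.5, 677 and 589 CPM at 3 h and at 966, 1012 and 1134 CPM and 516, 578 and 422 CPM at 12 h. The groups overlapped at 3 h, although the sheared library of each pool was the lower one, and were apart at 12 h. Without any 1 pool of 3 h the number was 0 in this list, and 2, 0 or 1 in the cholesterol list without 3 h replicate 1, 2 or 3. It was 3, 1 or 1 and 3, 2 or 1 without 12 h replicate 1, 2 or 3. Without 24 h replicate 3 it was 7 and 10, and with scaling by total counts 7 and 8.

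**Figure D4:**
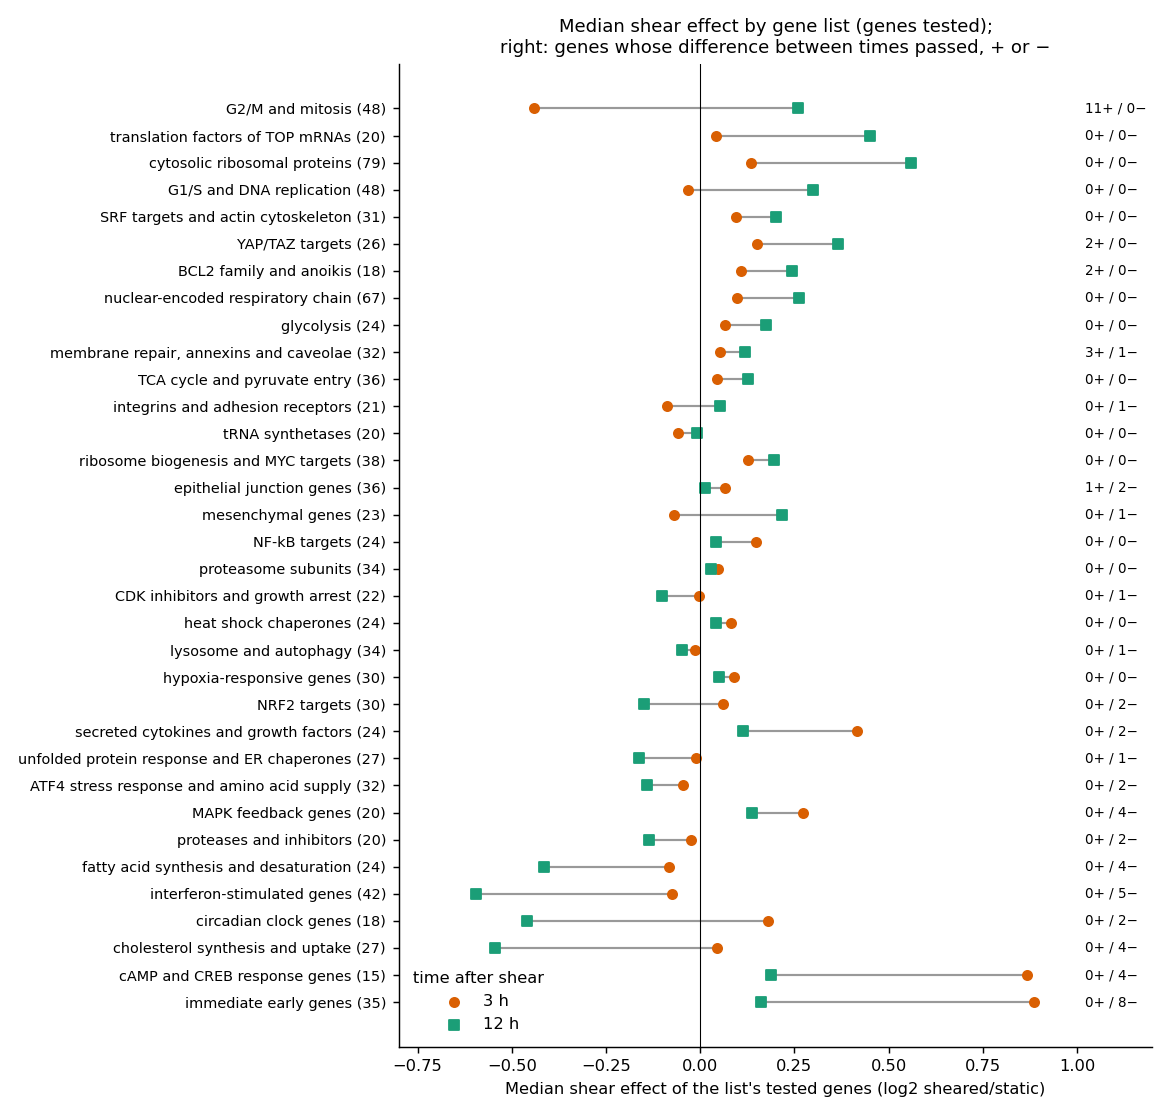
Median shear effect (log2 sheared over static) of each gene list at 3 h (orange circles) and 12 h (green squares), ordered by the median difference, with the number of genes tested in parentheses and the counts of genes whose difference passed at the right. Immediate early genes moved from 0.89 to 0.16, genes of G2/M and mitosis from -0.44 to 0.26, and interferon-stimulated genes from -0.07 to -0.59.

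Lasting responses passed at both times with 1 sign, and their difference between the times was called for 2 of 62, both growing. ST6GAL2, a sialyltransferase, was at 36.2, 33.8 and 30.0 CPM in static and 50.8, 60.9 and 42.6 CPM in sheared cells at 3 h and at 8.22, 8.28 and 7.51 CPM and 22.5, 28.2 and 29.0 CPM at 12 h, with effects of 0.62 ± 0.13 and 1.72 ± 0.14 (difference 1.11 ± 0.19, adjusted p = 0.00558). FST, which binds activins, had effects of 0.57 ± 0.10 and 1.33 ± 0.11 (adjusted p of the difference = 0.0133). For the other 60 a difference was not shown, which does not show that the effects were equal. ST6GAL2 lost its difference without 3 h replicate 1 (adjusted p = 0.0549).

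AQP3, a channel for water and glycerol, was at 16.9, 17.6 and 13.1 CPM in static and 43.6, 48.4 and 47.7 CPM in sheared cells at 3 h and at 6.83, 7.59 and 8.23 CPM and 21.7, 31.2 and 38.7 CPM at 12 h. DKK1, a secreted inhibitor of Wnt signalling, was at 418, 423 and 333 CPM and 923, 905 and 1077 CPM at 3 h and at 76.6, 92.8 and 80.5 CPM and 157, 199 and 353 CPM at 12 h. Sheared cells of both genes were above static ones at both times, and the differences of effects were 0.43 ± 0.26 and 0.11 ± 0.30. The cytokine gene IL6 had effects of 1.68 ± 0.20 and 0.84 ± 0.21 and a difference of -0.84 ± 0.29 (adjusted p = 0.18, or 0.0319 in the 12 libraries alone). MYC, a transcription factor of cell growth, had effects of 1.21 ± 0.14 and 0.58 ± 0.14 and a difference of -0.63 ± 0.20 (adjusted p = 0.148, or 0.024 with no filter on low counts). PDE4B, a phosphodiesterase of cAMP, had effects of 1.26 ± 0.16 and 1.46 ± 0.18.

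Lasting and lower were BAG3, a co-chaperone of selective autophagy, with effects of -0.72 ± 0.11 and -1.08 ± 0.11, and TP53INP1, a target of p53, with -0.78 ± 0.17 and -1.27 ± 0.15. ICAM1, an adhesion molecule, was at 77.2, 78.1 and 98.1 CPM in static and 37.5, 36.0 and 43.8 CPM in sheared cells at 3 h and at 99.1, 104 and 109 CPM and 64.0, 69.0 and 38.6 CPM at 12 h, a difference of 0.21 ± 0.33 (adjusted p = 0.856). All sheared libraries were below the static ones of their time in these 3 genes. Lasting genes numbered 23, 21 or 26 without 3 h replicate 1, 2 or 3, 34 or 35 without 12 h replicate 1 or 2, and 134 without 24 h replicate 3.

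Ribosomal protein genes give a case where the 12 h effect passed widely and no difference did. Of 79 cytosolic ribosomal proteins 75 were higher at 12 h and 0 at 3 h (6.29% and 1.12% of all genes), yet 0 differences passed in edgeR or DESeq2, although 68 had an unadjusted p below 0.05 and all 79 lay above 0 (0.14 to 0.73, median 0.41, or 0.31 with scaling by total counts). RPSA was at 2052, 2000.2 and 1706 CPM in static and 2314, 2289.7 and 1745 CPM in sheared cells at 3 h and at 2828, 2619 and 2766 CPM and 4687, 4084 and 3821 CPM at 12 h, a difference of 0.48 ± 0.15 (adjusted p = 0.143). It passed in the 12 libraries alone (0.0433) and when low counts were not filtered (0.0422), and 2 of the 79 passed without 24 h replicate 3 and 4 in the 12 libraries alone. In those last 2 settings 257 of 15448 and 341 of 15088 genes passed as more positive. Reads of these genes may be shared with their many pseudogenes. Translation factors of the same mRNA class had 15 of 20 members higher at 12 h, 0 differences that passed in either tool (13 at an unadjusted p below 0.05, and 3 in the 12 libraries alone), and a median difference of 0.42. Lists of glycolysis, the TCA cycle, the nuclear-encoded respiratory chain, hypoxia, heat shock chaperones, tRNA synthetases, proteasome subunits, NF-kB targets and SRF targets had 0 differences past the threshold in edgeR as well. At an unadjusted p below 0.05 they held 0 to 7 genes each, and DESeq2 called 1 gene of the TCA cycle and 1 SRF target. In the 12 libraries alone 6 NF-kB targets and 3 heat shock chaperones passed as more negative, where 464 of 15088 genes did. The median differences of NF-kB targets, glycolysis, the TCA cycle, tRNA synthetases, membrane repair, ribosome biogenesis, integrins, epithelial junction genes and mesenchymal genes changed sign with scaling by total counts.

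The levels behind the classes were also compared between the times, across batch dates. The classes were chosen on these same levels, so such shifts follow in part from the choice. Shares over all genes are given as description and not as a test. In transient higher genes the median static level moved by -0.02 (log2, 12 h minus 3 h) and the median sheared level by -1.09. All 3 sheared libraries of 12 h were below all 3 of 3 h in 34 of 43 genes (79.1%, against 27.8% of all genes). In delayed higher genes the median static level moved by -0.52 and the sheared level by 0.30, and the static libraries of 12 h were all below those of 3 h in 37 of 55 genes (67.3%, against 29.8%). In 19 of these 37 the sheared libraries overlapped between the times, as in 1229 of the 4520 such genes among all tested. In delayed lower genes the median static level moved by 0.65 and the sheared level by -0.41, and static libraries of 12 h were all above those of 3 h in 54 of 78 (69.2%, against 29.0%). In 25 of the 54 the sheared libraries overlapped between the times, as in 1310 of the 4403 such genes among all tested. CAV1 above is among the genes with lower and SLC7A8 among those with higher static levels at 12 h, and batch date and time in suspension cannot be told apart in these shifts.

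The shear effect at 24 h, from further pools, was set beside the classes after the data had been seen. Those pools were no part of the contrasts that define the classes, but they shaped the spread and so the calls. Of the 55 delayed higher genes 44 were higher in sheared cells at 24 h, and of the 78 delayed lower genes 68 were lower (80.0% and 87.2%, where 9.13% and 8.07% of all genes were higher and lower). Lasting genes were higher in 28 of 46 and lower in 13 of 16. Transient higher genes were higher at 24 h in 0 of 43 and lower in 6 (2 and 13 at an unadjusted p below 0.05). Of the 10 transient lower genes 8 were higher at 24 h and 1 lower, and all 4 of the genes that turned from lower to higher were higher. KIF14 had an effect of -0.89 at 3 h, 0.11 at 12 h and 1.28 at 24 h. The sheared library of 24 h replicate 3 stood apart from the rest in its composition (TMM scaling factor 0.721), and without that pool the numbers were 45 of 55, 62 of 78, 21 of 46, 12 of 16, 0 and 5 of 43, 8 and 0 of 10 and 4 of 4, with 6.09% of all genes higher and 3.94% lower.

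**Figure D5:**
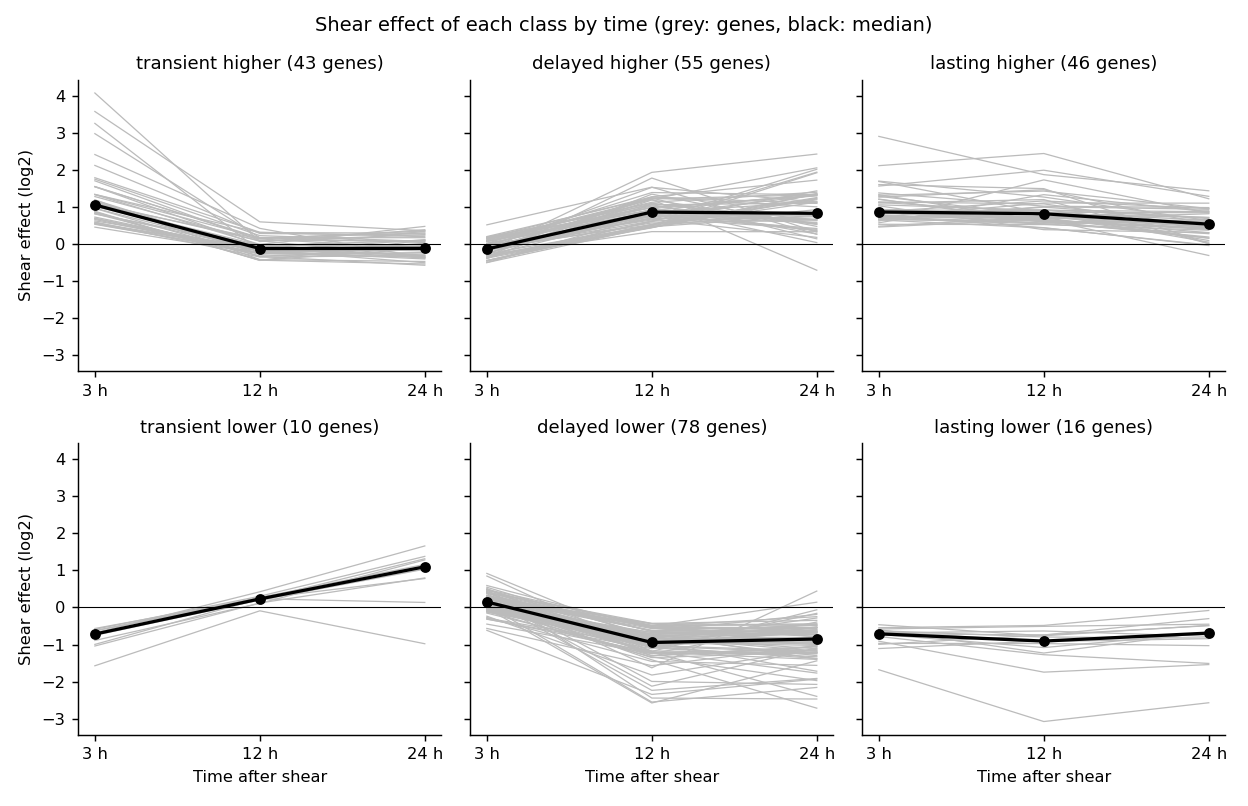
Shear effect (log2 sheared over static) of the genes of 6 response classes at 3 h, 12 h and 24 h, 1 grey line per gene and the median in black. The classes were defined on the effects at 3 h and 12 h, in a fit whose spread also rested on the 24 h pools. At 24 h the median was 0.82 in delayed higher, -0.85 in delayed lower, -0.12 in transient higher and 1.10 in transient lower genes.

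The authors' deposited tables hold a fold change of each gene at each time. For all 214 genes called here, subtracting the 3 h from the 12 h value of the authors' deposited tables gave a difference of the same sign. These tables rest on the same libraries and are no independent evidence. At the edge of the call, BIRC5, FGD3 and PALMD were just inside with adjusted p-values of 0.0481, 0.0481 and 0.0482, and ATAD3B, PCDH9 and ATXN7 just outside with 0.0512 each.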

How the data were processed

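Cytosolic RNA of PC-3 cells was sequenced in 18 libraries, of which the 12 of 3 h and 12 h bear on the comparison. The authors deposited raw counts per gene for each library, and tables of log2 fold changes with p-values and adjusted p-values at each time, per the file headers. STAR, DESeq2 and GRCh38.p13 are named in the submitters' processing notes, while for the read counter, annotation and strandedness a name was not given in the sources used here. Gene IDs were paired with symbols from RefSeq (GRCh38.p14), which matched 27745 of 28395.

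Counts of all 18 libraries were fitted in edgeR 4.0.16 (R 4.3.3) after TMM scaling and filterByExpr (minimum count 10, minimum total 15). The 9 pools entered as blocks, with a shear effect for each time, which left 6 residual degrees of freedom. The quasi-likelihood F test was robust, and p-values were adjusted by Benjamini-Hochberg at 0.05 over 15189 genes. The p-values measure how far the ratio of sheared to static cells varies between pools of one time. This spread was estimated with the 24 h pools included. CPM values are TMM-scaled except the marker checks, which use total counts, and counts were not adjusted for gene length, so levels are compared within a gene only. An exact permutation test on 3 against 3 pools cannot give a p below 0.1 and was not used. Counts of replicates differed beyond sampling noise (chi-square per degree of freedom 4.44 to 44.3), and no libraries were identical. On simulated data, shear effects were set to 0 at all times except in 67, 67 and 66 of 15189 genes changed at 12 h. Their differences of 1.5-fold, 2-fold and 4-fold were recovered in 5.97%, 47.8% and 81.8%. There 9 of 99 calls were false, a larger share than the threshold of 0.05 aims at. The real data had many more shear effects at 12 h, so these shares may not carry over.

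The series' design text states the pairing within a pool. The deviations of same-numbered libraries correlated at 0.0881 to 0.299 at 3 h and -0.148 to 0.245 at 12 h, and those of other numbers at -0.242 to 0.130 and -0.385 to 0.233, so the ranges overlapped at both times.

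The members and the 39 gene lists were chosen with earlier results of these data known. The classes were defined as given in the text. Named genes were the 12 largest differences in each direction with pools apart and a mean log2 CPM of at least 1, the 6 largest effects of each class, the 4 members of each list with the smallest p, and a set of well-known genes. The comparison of classes with 24 h, its version without 24 h replicate 3 and the comparison of levels between times were added after the data were seen. Alternatives were DESeq2 1.42.0, its size factors, scaling by total counts, no filter, no replicate block, the 12 libraries alone, and each pool left out. One marker gene is not reported here.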

Additional observations from a re-analysis of the deposited data

Results flagged for a closer look

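The shear effect differed between the times, by the test of the difference itself, in 78 genes toward a more positive effect at 12 h and in 136 toward a more negative one (edgeR, adjusted p below 0.05). In 10 of these the effect also passed at each time with opposite signs. The log2 difference, 12 h minus 3 h, was -2.66 in PER2, -1.57 in JUND, -1.39 in CEMIP2, -1.22 in TNFRSF19, -1.14 in KIAA0040 and -1.14 in SPRY1. It was 1.58 in CCNF, 1.22 in CDCA8, 1.10 in KIF2C and 1.05 in AURKA. The 3 pools of a time moved one way in each of the 10 genes, and time and batch date cannot be told apart. The call of CEMIP2 was lost without 12 h replicate 2 (adjusted p = 0.0726) and that of KIF2C without replicate 1 or 2 of either time (up to 0.101).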

How the results depend on the processing

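With no replicate block, which ignores that the sheared and static library of a pool are paired, 58 genes were higher and 6 lower at 3 h, 183 and 137 at 12 h, and 5 differences were positive and 24 negative, with 17 transient, 10 delayed, 1 opposite and 12 lasting genes. With the replicate block on the 12 libraries of 3 h and 12 h alone, these were 346 and 172, 1726 and 1378, 341 and 464, 143, 541, 56 and 168. Without the filter on low counts, 3 h gave 331 and 119, the difference 242 and 346, and the classes 126, 369, 31 and 136. DESeq2 gave 79 lower genes at 3 h, 154 positive and 248 negative differences, and 87 transient, 255 delayed and 16 opposite genes. Total counts scaling gave 425 higher and 1441 lower genes at 12 h and 49 and 208 differences. Leaving out 1 pool gave 70 to 304 higher and 9 to 142 lower genes at 3 h, 196 to 1553 and 165 to 1138 at 12 h, 15 to 257 positive and 44 to 378 negative differences, and 23 to 123 transient, 28 to 414 delayed, 2 to 44 opposite and 21 to 134 lasting genes. The lowest numbers came without pools of 3 h or 12 h, where fewer pools enter the contrast, and the highest without 24 h replicate 3; the cause of the latter was not tested. Of the 214 differences, 207 passed with DESeq2 size factors, 181 with total counts scaling, 214 with DESeq2 and 29 with no replicate block, all with the same sign. Depth limits genes of low counts, and 3 pools a group limit the rest.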

Other observations

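Lists of stress and differentiation genes held 1 or 2 more negative calls each, where 0.895% of all genes were called in that direction. Of 27 genes of the unfolded protein response, 1 had a more negative effect at 12 h, the ER chaperone gene DNAJB9 (0.28 ± 0.18 at 3 h, -1.08 ± 0.19 at 12 h, adjusted p of the difference = 0.0161, edgeR). Of 30 NRF2 targets 2 did, SLC7A11 and HMOX1, which breaks down heme (-0.79 ± 0.19, adjusted p = 0.0423). Of 34 genes of lysosome and autophagy 1 did, the receptor gene SQSTM1 (-0.76 ± 0.18), and of 22 CDK inhibitors and genes of growth arrest 1 did, CDKN1A, a target of p53 (0.68 ± 0.13 at 3 h, -0.16 ± 0.14 at 12 h, adjusted p of the difference = 0.0311). Among 36 epithelial junction and keratin genes, KRT15 (-1.01 ± 0.19) and CLDN4, a tight junction protein (-0.84 ± 0.17), had a more negative effect and KRT7 a more positive one. The shares called in either direction were 3.70% of the unfolded protein response, 6.67% of NRF2 targets, 2.94% of lysosome and autophagy, 4.55% of CDK inhibitors and 8.33% of the junction list. These calls changed with single pools: those of HMOX1 and SQSTM1 were lost without any 1 pool of 3 h or 12 h, those of CDKN1A, CLDN4 and KRT7 without 5 of these 6 pools, those of SLC7A11 and DNAJB9 without 4 and that of KRT15 without 3.

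In 16 genes the difference passed while neither time did. The serpin gene SERPINB5 had effects of 0.47 ± 0.12 and -0.39 ± 0.12 (adjusted p of the difference = 0.0203), and HS3ST5, a sulfotransferase of heparan sulfate, -0.87 ± 0.24 and 0.68 ± 0.26 (adjusted p = 0.0346). The call of SERPINB5 was lost without 5 of the 6 pools of 3 h and 12 h, and that of HS3ST5 without any 1 of the 6 and with scaling by total counts (adjusted p = 0.0732). Chosen after their values were seen, ITGB2, an integrin chain of leukocytes, and its antisense RNA ITGB2-AS1 both had delayed lower responses, with differences of -1.11 ± 0.18 and -2.46 ± 0.39; reads of the 2 overlapping genes cannot be told apart where the strand setting is not given.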
